A study of Mus musculus with 24 samples.

Results

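Macrophages that had spent 24 h with lipopolysaccharide (LPS) were compared directly with macrophages that had spent 24 h with 4-hydroxyestrone (4-OHE1), 3 libraries against 3 of the 24 in the series. All 10718 genes with at least 1 FPKM (read count per kilobase of transcript, scaled by the depth of the library) in at least 3 of the 6 libraries were tested, out of 24537 in the table. The cells were bone marrow-derived macrophages, grown for 7 days with 20 ng/mL macrophage colony-stimulating factor from the marrow of 8-week-old female C57BL/6J mice. Cells of the LPS group received LPS alone, and cells of the 4-OHE1 group received 4-OHE1 alone. At the same time point 3 control libraries received vehicle (EtOH, per the file headers) and 3 received LPS and 4-OHE1 together, and all 4 treatments were also sampled at 6 h. The doses are uncertain, because the protocol gives 100 ng/mL for LPS and 5 mM for 4-OHE1 both as stock and as final concentration. Whether the 3 libraries of a group come from separate mice or dishes is not stated, and p-values here measure only how much these libraries vary, which may be technical.

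LPS is a component of the outer membrane of Gram-negative bacteria. It is sensed by the receptor TLR4 with CD14, which switches on NF-kB and, through another arm and secreted type I interferon, the interferon-stimulated genes. 4-OHE1 is a catechol metabolite of the estrogen estrone, and catechols of this kind can oxidise to quinones that react with thiols. Thiol-reactive compounds are known to release the transcription factor NRF2 from its inhibitor KEAP1, to activate heat shock factor, and to engage the integrated stress response, in which ATF4 drives genes of amino acid supply.

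The 6 libraries held 8808613 to 12238808 reads, with 84.0% to 87.1% of them assigned to genes. A single read on a 2 kb transcript equalled 0.041 to 0.057 FPKM. All 8 macrophage markers were measured, with a summed level of 13500 to 15100 FPKM with LPS and 9200 to 9830 FPKM with 4-OHE1. Markers of B cells, T and NK cells, mast cells and relatives, and erythroid cells had 0 members past the filter. Neutrophil markers summed to 63.1 to 79.6 FPKM with LPS and 9.17 to 12.3 FPKM with 4-OHE1, almost all of it from S100a8, Csf3r and Camp, the 3 of its 10 members that passed the filter, while S100a9, Ly6g, Mpo and Elane were at or below 0.44 FPKM and Retnlg was at 0 in all 6 libraries. Dendritic cell markers summed to 533 to 624 against 55.2 to 68.9 FPKM, nearly all from Bst2, which is also an interferon-stimulated gene, and Cd209a was at 0. Osteoclast markers summed to 42.7 to 47.7 against 35.2 to 36.1 FPKM, with Acp5 higher with LPS, Ctsk, Dcstamp and Nfatc1 higher with 4-OHE1, and Oscar at 0. Fibroblast markers summed to 5.19 to 6.08 against 2.46 to 3.4 FPKM and endothelial markers to 2.75 to 3.77 against 8.05 to 8.42 FPKM, the latter mainly from Kdr. The part of the osteoclast, fibroblast and endothelial markers in the results was not tested.

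More genes were higher with 4-OHE1 than with LPS when FPKM values were taken as deposited. Of the 10718 genes, 1436 (13.4%) were higher with LPS and 6288 (58.7%) were higher with 4-OHE1 at an adjusted p under 0.05, and the median gene was lower with LPS by a log2 difference of -0.39. After the libraries were scaled by the median of their gene ratios, 3061 genes (28.6%) were higher with LPS and 3037 (28.3%) with 4-OHE1, and 101 genes were called in opposite directions by the scalings. The size factors were 0.848 to 0.883 in the LPS libraries and 1.15 to 1.17 in the 4-OHE1 libraries. The 10 most abundant genes took 23.5% to 24.7% of the summed FPKM in the LPS libraries and 14% to 14.3% in the 4-OHE1 libraries, and Saa3 alone took 5.39% to 6.37% with LPS. In RNA from bulk cultures, a change in the number of cells of a kind and a change in RNA per cell cannot be told apart, and neither can a true fall of most genes with LPS and the room taken by its most abundant transcripts.

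Genes were therefore said to tell the stimuli apart only when both scalings called them in the same direction. This held for 1436 genes higher with LPS (13.4%) and 3037 higher with 4-OHE1 (28.3%), 4473 in all. They were all the genes called higher with LPS as deposited and all those called higher with 4-OHE1 after scaling. In each direction 1 fit thus decided the call, and the other removed no gene. Among these 4473 genes, 717 were at least 2-fold higher with LPS and 934 at least 2-fold higher with 4-OHE1 under both scalings. At 8-fold the balance was the other way, with 219 genes higher with LPS and 42 higher with 4-OHE1. The groups did not overlap for 74.2% of the tested genes, so non-overlap by itself set few genes apart. Log2 differences below are LPS minus 4-OHE1 on the log2(FPKM + 0.5) scale, with their standard error after the sign ± (3 libraries a group), and are those of the deposited values unless scaling is named. Where a group is near 0 FPKM, the added 0.5 narrows both the log2 difference and its spread. Such genes include Nos2, Hp, Zbp1, Cxcl1, Csf3 and Fpr1, with 4 to 8 reads each over the 4-OHE1 libraries. A gene is called higher in a group only where it passed under both scalings. Counts for gene lists are to be read beside the shares of all genes tested, 13.4% with LPS and 28.3% with 4-OHE1.

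**Figure D1:**
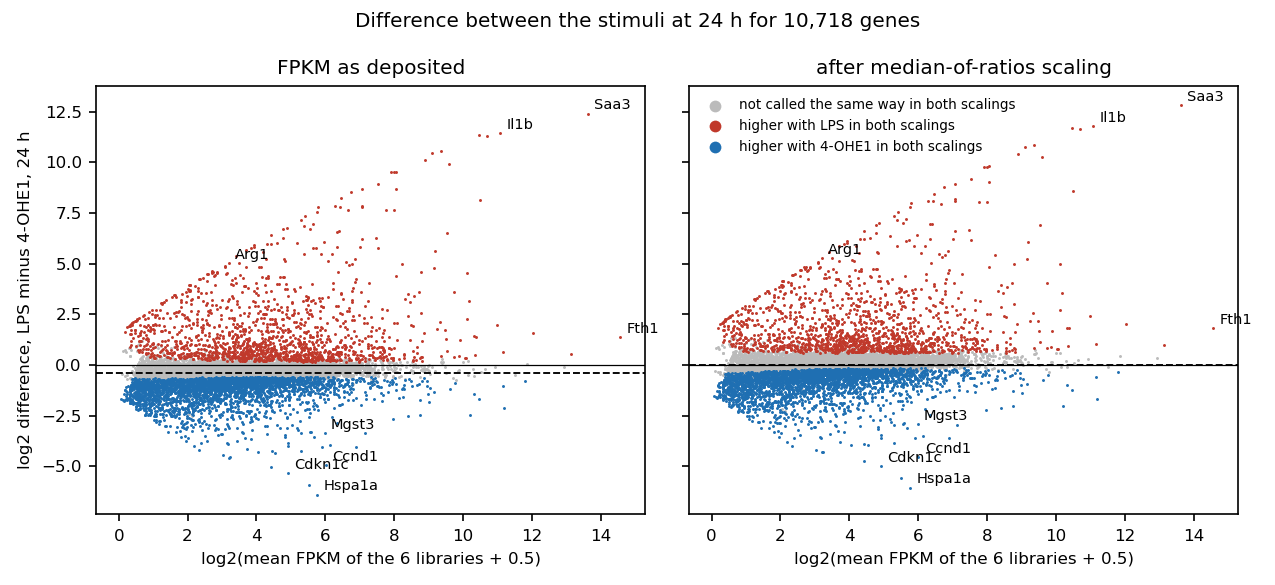
Log2 difference between LPS and 4-OHE1 at 24 h (vertical axis, LPS minus 4-OHE1) against log2(mean FPKM of the 6 libraries + 0.5) on the horizontal axis for 10718 genes, as deposited (left) and after median-of-ratios scaling (right). Red points are the 1436 genes higher with LPS and blue points the 3037 genes higher with 4-OHE1 under both scalings, grey points are the rest, and the dashed line is the median, at -0.39 on the left and at 0 on the right; the points farthest from 0 lie on the LPS side, up to Saa3 at 12.41.

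Secreted proteins of inflammation and the acute phase set the LPS cultures apart most widely. Saa3, an acute phase apolipoprotein made by macrophages, was at 25390, 28170 and 22280 FPKM in the LPS libraries and at 7.15, 5.14 and 1.78 FPKM in the 4-OHE1 libraries. Its log2 difference was 12.41 ± 0.38 (adjusted p = 6.13e-08), the largest of the genes named here. Relative to their mean, its 4-OHE1 libraries differed among themselves by more than its LPS libraries did. Il1b, which encodes the pyrogenic cytokine interleukin 1 beta, reached 4474, 4347 and 4162 FPKM with LPS and 1.83, 1.22 and 0.443 FPKM with 4-OHE1, a log2 difference of 11.44 ± 0.28. Il1a, its relative, stood between 1126 and 1524 FPKM with LPS and below 0.5 FPKM in every 4-OHE1 library. The groups did not overlap for any of the 3.

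Among 15 measured inflammatory cytokines, 12 were higher with LPS and 1 with 4-OHE1, and the list's median log2 difference was 4.41 against -0.39 over all genes tested. Csf3, the granulocyte growth factor, was at 288, 274 and 241 FPKM with LPS and at 0.257, 0.121 and 0.062 FPKM with 4-OHE1 (8.70 ± 0.12). Il6 was at 205, 185 and 252 FPKM with LPS against 0, 0 and 0.224 FPKM, and its 4-OHE1 value rested on 3 reads, giving a ratio of 2870 with an exact 95% counting interval of 981 to 13900. Tnf had a clear level in both groups, at 505, 523 and 486 FPKM with LPS and 22.6, 27.2 and 20.6 FPKM with 4-OHE1, a 21.5-fold difference of the means (4.41 ± 0.10, adjusted p = 1.35e-08). The exception in the list was Tnfsf9, a costimulatory ligand of the TNF family, at -0.86 and at -0.45 after scaling.

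Chemokines followed the cytokines, with 17 of 18 measured members higher with LPS, none higher with 4-OHE1, and a median of 3.64. Ccl5, which attracts T cells and monocytes, was at 2986, 3040 and 2526 FPKM with LPS and at 0.83, 0.311 and 0.644 FPKM with 4-OHE1 (11.37 ± 0.17). Cxcl3, Cxcl1 and Cxcl2, ligands of the neutrophil receptor CXCR2, differed by 11.30 ± 0.36, 9.53 ± 0.18 and 8.17 ± 0.05. Cxcl2 was the least variable of these, at 2853, 2828 and 2920 FPKM against 9.56, 9.41 and 9.44 FPKM, and its 4-OHE1 level lay above its control mean of 1.55 FPKM.

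The promoters of some of these genes are given because they carry the letters bound by the factors that LPS is known to activate. Windows of 250 bases before to 50 bases after the start were taken from RefSeq (GRCm38.p6), in which 8283 of the 10718 tested genes were matched. Capitals mark the NF-kB letters, GGGA and TTCC with 2 bases of any kind between them, or the interferon-response letters, GAAA and GAAA with 2 bases between, on either strand. The first pattern is in 1.47% and the second in 3.44% of all 32851 windows of the table.
Il6, chr5:30012864-30013163, plus strand: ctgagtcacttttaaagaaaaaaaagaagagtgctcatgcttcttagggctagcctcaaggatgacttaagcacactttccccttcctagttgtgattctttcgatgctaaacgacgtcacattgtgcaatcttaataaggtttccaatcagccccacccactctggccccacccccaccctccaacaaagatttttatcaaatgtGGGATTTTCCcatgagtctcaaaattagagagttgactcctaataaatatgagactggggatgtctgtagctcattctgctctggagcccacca
Cxcl2, chr5:90903649-90903948, plus strand: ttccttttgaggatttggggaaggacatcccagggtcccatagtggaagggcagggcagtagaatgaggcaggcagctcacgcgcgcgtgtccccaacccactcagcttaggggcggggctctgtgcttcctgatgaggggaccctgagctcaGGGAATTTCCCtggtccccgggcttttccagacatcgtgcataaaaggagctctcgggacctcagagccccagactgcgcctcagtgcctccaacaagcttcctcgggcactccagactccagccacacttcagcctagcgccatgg
Cxcl10, chr5:92348840-92349139, minus strand: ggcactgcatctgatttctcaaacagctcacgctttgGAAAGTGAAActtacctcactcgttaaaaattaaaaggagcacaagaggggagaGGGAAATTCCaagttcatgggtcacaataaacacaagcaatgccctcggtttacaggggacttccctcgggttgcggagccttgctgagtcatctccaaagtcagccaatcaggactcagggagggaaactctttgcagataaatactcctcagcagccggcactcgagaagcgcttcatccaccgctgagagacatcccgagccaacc
Ifit1, chr19:34640639-34640938, plus strand: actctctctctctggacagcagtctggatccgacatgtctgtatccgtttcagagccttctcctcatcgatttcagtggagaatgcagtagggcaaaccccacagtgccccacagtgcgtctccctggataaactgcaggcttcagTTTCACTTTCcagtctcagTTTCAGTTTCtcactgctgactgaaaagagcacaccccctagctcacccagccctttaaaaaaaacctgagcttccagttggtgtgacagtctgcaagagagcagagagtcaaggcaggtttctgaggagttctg
In Cxcl2 the pattern matched on both strands at overlapping positions, which is a single site. Cxcl10 held 1 match of each pattern, Il6 held the NF-kB letters once, and Ifit1 held the interferon-response letters at 2 places. Among the genes at least 8-fold higher with LPS under both scalings that had a window, 33 of 166 (19.9%) held the interferon-response letters, against 3.39% of the tested genes with a window, and 12 (7.23%) held the NF-kB letters, against 1.47%. These are matches of letters and not evidence of binding.

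Of 13 measured acute phase and complement genes 8 were higher with LPS and 4 with 4-OHE1, the latter near the 28.3% of all genes tested. Lcn2, which binds bacterial siderophores, was at 1135, 1184 and 1003 FPKM with LPS and at 0.826, 0.097 and 0.1 FPKM with 4-OHE1 (10.47 ± 0.28). Cfb, a component of the alternative complement pathway, differed by 8.91 ± 0.14, and the haemoglobin carrier Hp by 7.54 ± 0.14. The members higher with 4-OHE1 were the 3 chains of C1q and the receptor C3ar1. C1qa was at 34.1, 29.9 and 25.1 FPKM with LPS and at 55.5, 54.8 and 56.3 FPKM with 4-OHE1, a log2 difference of -0.90 ± 0.11 (adjusted p = 0.000119) that shrank to -0.48 after scaling. Both groups were below the control mean of 78.3 FPKM.

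Of 11 genes of arginine, nitric oxide and itaconate metabolism 7 were higher with LPS and 3 with 4-OHE1, the latter near the share of all genes tested. Acod1, which makes the antimicrobial metabolite itaconate from aconitate, was at 1489, 1586 and 1576 FPKM with LPS and at 0.981, 1.49 and 0.952 FPKM with 4-OHE1 (9.90 ± 0.12, adjusted p = 1.22e-09). Nos2, the inducible nitric oxide synthase, was at 29.5, 30.8 and 27.6 FPKM against 0.046, 0.043 and 0 FPKM (5.81 ± 0.10). The 4-OHE1 level of Nos2 rested on 4 reads, and the ratio of its means was 987. Slc7a2, the arginine importer of activated macrophages, differed by 7.85 ± 0.10. Arg1, which competes with NOS2 for arginine and is best known from alternatively activated macrophages, was also an LPS gene at this time, at 19, 17.8 and 15.2 FPKM against 0.059, 0.056 and 0 FPKM. Its 4-OHE1 level rested on 2 reads, so that the ratio of 452 has an exact 95% counting interval of 125 to 3740.

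Of 15 genes of prostaglandin and leukotriene synthesis 3 were higher with LPS and 5 with 4-OHE1, shares near those of all genes tested. Ptgs2 (cyclooxygenase 2) was at 332, 310 and 443 FPKM with LPS and at 6.22, 5.73 and 6.21 FPKM with 4-OHE1 (5.77 ± 0.13), and Ptges, the prostaglandin E synthase downstream of it, differed by 6.62 ± 0.08. Alox5, which starts leukotriene synthesis, was at 0.929, 1.11 and 0.888 FPKM with LPS and at 20.1, 20.4 and 18.2 FPKM with 4-OHE1 (-3.77 ± 0.10). Ltc4s, the leukotriene C4 synthase, differed by -3.13 ± 0.27, at 0.712 to 2.37 against 14.9 to 17.4 FPKM.

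**Figure D2:**
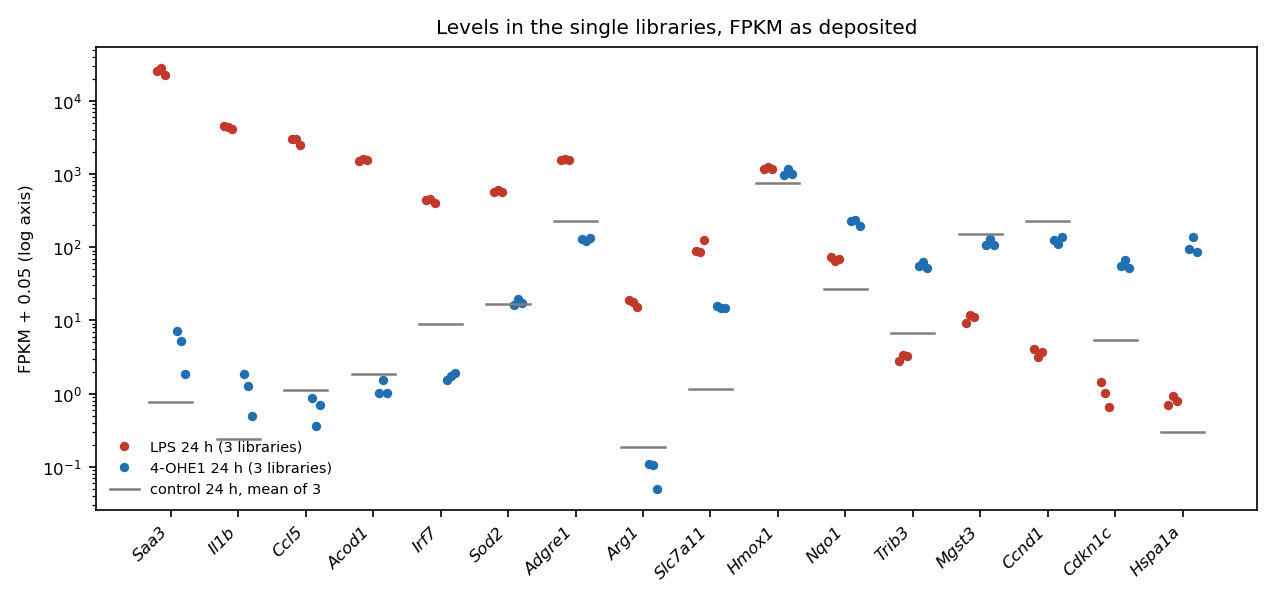
FPKM in the single libraries (points, log axis after adding 0.05) of 16 genes at 24 h, with LPS in red and 4-OHE1 in blue, 3 libraries each, and the mean of 3 control libraries as a grey line. From Saa3 to Slc7a11 all red points lie above all blue points; for Hmox1 the groups overlap; from Nqo1 to Hspa1a all blue points lie above all red points.

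The interferon-stimulated genes moved as a block. All 39 measured members were higher with LPS under both scalings, with a median of 3.55 before and 3.84 after scaling. Irf7, the factor that amplifies interferon production, was at 440, 458 and 406 FPKM with LPS and at 1.5, 1.68 and 1.84 FPKM with 4-OHE1 (7.65 ± 0.08), and its 4-OHE1 level was below the control mean of 8.90 FPKM. Zbp1, a sensor of Z-form nucleic acid, differed by 7.85 ± 0.18, and Ifit1, which binds viral RNA caps, by 6.73 ± 0.18. Ifit1 was at 88.4, 82.8 and 107 FPKM against 0.199, 0.341 and 0.643 FPKM, and in the controls at a mean of 3.78 FPKM.

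All 10 measured guanylate-binding proteins and immunity GTPases, which attack the vacuoles of intracellular microbes, were also higher with LPS, with a median of 3.36. Gbp2 was at 111, 124 and 133 FPKM against 1.29, 1.44 and 1.25 FPKM (6.07 ± 0.09). Gbp5 was at 25.9, 29.8 and 33.3 FPKM with LPS and had no read in the 3 libraries with 4-OHE1. Against a limit of 3 reads over that group it was at least 1060-fold higher with LPS. Members of this family are similar in sequence, so the division of reads between them is uncertain. Among the interferon regulatory factors 4 of 7 were higher with LPS, including Irf9 (1.68 ± 0.09), Irf1 (1.40 ± 0.10) and Irf8 (0.56 ± 0.08), a far narrower range than that of Irf7.

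Regulators of NF-kB signalling were higher with LPS in 13 of 16 cases and with 4-OHE1 in none. Nfkbia, the inhibitor that NF-kB itself induces, was at 355, 362 and 333 FPKM against 52.6, 54.5 and 46.8 FPKM (2.76 ± 0.08). Tnfaip3 (A20), a ubiquitin-editing enzyme that ends the signal, differed by 3.06 ± 0.08, and the subunit Relb by 2.52 ± 0.13. Feedback inhibitors of cytokine signals reached further. Socs3 was at 270, 275 and 250 FPKM with LPS and at 3.14, 3.39 and 2.83 FPKM with 4-OHE1 (6.19 ± 0.08), and Socs1 differed by 5.15 ± 0.13. Il1rn, the interleukin 1 receptor antagonist, differed by 4.25 ± 0.06, and Il10 by 2.36 ± 0.16. In this list, which also holds the prostaglandin E synthase Ptges, 11 of 16 were higher with LPS and 3 with 4-OHE1.

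Of 21 genes of LPS sensing and Toll-like receptor signalling 8 were higher with LPS and 6 with 4-OHE1, the latter a share near the 28.3% of all genes tested. Tlr2 was at 160, 154 and 165 FPKM with LPS and at 14.8, 12.4 and 14.3 FPKM with 4-OHE1 (3.49 ± 0.08), and Tlr1, its partner in sensing lipopeptides, differed by 4.02 ± 0.10. Cd14, the LPS co-receptor, was at 1136, 1173 and 1021 FPKM against 339, 350 and 302 FPKM (1.75 ± 0.08), and both groups were above the control mean of 96.5 FPKM. Tlr4, the LPS receptor itself, was at 8.97, 7.45 and 12.3 FPKM with LPS and at 21.8, 16.3 and 24.9 FPKM with 4-OHE1. Its groups did not overlap, and it was higher with 4-OHE1 (-1.10 ± 0.20, adjusted p = 0.00139). The difference was -0.69 after scaling (adjusted p = 0.0232).

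Inflammasome genes were higher with LPS in 7 of 12 cases and with 4-OHE1 in 1. Nlrp3, the sensor of the NLRP3 inflammasome, was at 95.6, 100.0 and 92.3 FPKM against 20.3, 17.3 and 18.9 FPKM (2.32 ± 0.08), and Mefv, which encodes pyrin, differed by 4.55 ± 0.11. Nlrp1b was the exception, at 0.291, 0.447 and 0.301 FPKM with LPS and at 4.34, 4.52 and 4.28 FPKM with 4-OHE1 (-2.53 ± 0.13). Its 4-OHE1 level was near the control mean of 6.20 FPKM.

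All 19 measured genes of MHC class I presentation were higher with LPS, with a median of 1.99 and, after scaling, 2.41. Tap1, the peptide transporter, was at 64.3, 67.1 and 58.5 FPKM against 9.33, 11.1 and 10.1 FPKM (2.58 ± 0.09), and Psme2, a proteasome activator that interferon induces, differed by 2.55 ± 0.07. No direction can be given for the constitutive proteasome, since 2 of its 31 subunits were higher with LPS and 12 with 4-OHE1 as deposited but 15 and 1 after scaling. Of 7 class II genes 5 were higher with LPS. H2-Ab1 was at 164, 177 and 142 FPKM against 12.7, 13.4 and 12.9 FPKM (3.58 ± 0.09), whereas the invariant chain Cd74 differed by 0.83 ± 0.09.

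Of 15 ligands and receptors that tune T cells 7 were higher with LPS and 4 with 4-OHE1, the latter near the 28.3% of all genes tested. Cd274 (PD-L1), which inhibits T cells, differed by 4.07 ± 0.09, at 133, 140 and 153 FPKM with LPS, and Cd40, the receptor through which T cells activate macrophages, by 3.25 ± 0.11. Havcr2 (TIM-3) was at 6.11, 4.96 and 5.9 FPKM with LPS and at 51.8, 52.8 and 54.0 FPKM with 4-OHE1 (-3.12 ± 0.09). Its control mean was 44.0 FPKM, so the 4-OHE1 cultures lay nearer to the controls.

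Of 23 scavenger and uptake receptors 14 were higher with LPS and 7 with 4-OHE1, the latter near the 28.3% of all genes tested. Marco, a scavenger receptor for bacteria, was at 536, 581 and 483 FPKM against 0.888, 0.914 and 0.603 FPKM (8.68 ± 0.11), and Clec4e (Mincle), which senses mycobacterial glycolipid, differed by 6.51 ± 0.14. Fcgr2b, the inhibitory IgG receptor, differed by 5.00 ± 0.07. Mrc1, the mannose receptor, was at 0.817, 1.15 and 0.966 FPKM with LPS and at 13.0, 10.5 and 14.8 FPKM with 4-OHE1 (-3.16 ± 0.15). Both groups were below its control mean of 36.6 FPKM.

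Receptors for formyl peptides, the bacterial products that guide phagocytes, were near or at 0 with 4-OHE1. Fpr1 was at 463, 487 and 492 FPKM with LPS and at 0.331, 0 and 0.193 FPKM with 4-OHE1 (9.51 ± 0.17). Fpr2 was at 116, 88.1 and 126 FPKM with LPS and had no read with 4-OHE1, which makes it at least 1690-fold higher with LPS. Cxcr4, which retains cells in the marrow, went the opposite way, at 2.33, 1.3 and 1.63 FPKM against 44.7, 47.6 and 40.0 FPKM (-4.33 ± 0.16). The neutrophil markers that passed the filter were higher with LPS as well, with means of 48.8 against 9.04 FPKM for S100a8, 4.85 against 0 FPKM for Camp and 16.2 against 1.24 FPKM for Csf3r, while Mpo, Elane and Ly6g were near or at 0 in both groups. The part of neutrophils in the receptor values was not tested. Across the 14 measured chemokine and peptide receptors 9 were higher with LPS and 4, near the share of all genes tested, with 4-OHE1.

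Of 19 measured genes of macrophage identity 8 were higher with LPS and 5, near the share of all genes tested, with 4-OHE1. Adgre1 (F4/80), the classical surface marker, was at 1553, 1610 and 1564 FPKM with LPS and at 128, 122 and 133 FPKM with 4-OHE1, a 12.3-fold difference (3.62 ± 0.06, adjusted p = 3.12e-09). The control mean was 229 FPKM. Itgam (CD11b) differed by 1.24 ± 0.06 and Fcgr1 by 3.35 ± 0.07. Csf1r, the receptor for the growth factor in the medium, was at 738, 739 and 671 FPKM with LPS and at 663, 640 and 638 FPKM with 4-OHE1, a log2 difference of 0.14 ± 0.07 that did not pass without scaling (adjusted p = 0.083; 95% interval -0.01 to 0.30) and was 0.57 after it (adjusted p = 0.000142). Without the third LPS library the unscaled difference was 0.19 and passed (adjusted p = 0.0322). Lgals3 (galectin 3) was at 952, 923 and 746 FPKM against 3610, 4315 and 3434 FPKM (-2.12 ± 0.12), and the lineage factor Cebpa at 9.36 to 11.3 against 41.5 to 43.4 FPKM (-1.98 ± 0.08). The 4-OHE1 values of Lgals3 lay around its control mean of 3669 FPKM.

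Among all genes tested, the largest difference in favour of 4-OHE1 was that of Hspa1a, the inducible HSP70, which was at 0.647, 0.873 and 0.731 FPKM with LPS and at 94.8, 140.1 and 87.2 FPKM with 4-OHE1, a 143-fold difference (-6.40 ± 0.17, adjusted p = 2.93e-08). Hspa1b differed by -5.94 ± 0.15. These genes are near-identical copies, so the division of reads between them is uncertain, but both pointed the same way. The ratio of means was larger for Tox2 (453) and Ndrg2 (273), whose LPS levels rested on 1 and 2 reads. Cryab, a small heat shock protein, was at 1.14, 0.192 and 0.259 FPKM against 6.06, 8.75 and 7.43 FPKM (-3.04 ± 0.32).

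The family as a whole was less clear-cut than its inducible members. Of 23 cytosolic heat shock genes 12 were higher with 4-OHE1 and 3 with LPS, the latter near the 13.4% of all genes tested. The median was -0.67 before and -0.25 after scaling. Of 12 mitochondrial chaperones and proteases 3 were higher with 4-OHE1, a share near that of all genes tested, and none with LPS. They included the protease Lonp1 (-1.21 ± 0.11) and the mitochondrial HSP70 Hspa9 (-0.91 ± 0.06). In the endoplasmic reticulum 7 of 20 chaperones and stress genes were higher with 4-OHE1, near the 28.3% of all genes tested, and 1 with LPS. As deposited 14 were higher with 4-OHE1 and 1 with LPS, but after scaling 7 and 8. The median changed from -0.33 to 0.10 on scaling, so no direction is given for this list. Hspa5 (BiP) was at 483, 491 and 478 FPKM against 1113, 1112 and 1084 FPKM (-1.19 ± 0.06), and Herpud1, which acts in the degradation of misfolded proteins, differed by -1.86 ± 0.08. Both groups were above the Hspa5 control mean of 303 FPKM.

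Genes of the ATF4 integrated stress response were higher with 4-OHE1 in 25 of 29 cases and with LPS in 2, with a median of -1.72 before and -1.31 after scaling. Trib3, a pseudokinase that restrains the pathway, was at 2.7, 3.33 and 3.16 FPKM with LPS and at 55.8, 61.9 and 52.3 FPKM with 4-OHE1 (-4.00 ± 0.10, adjusted p = 1.97e-08). Ddit3 (CHOP) was at 18.7, 23.3 and 18.5 FPKM against 112, 155 and 107 FPKM (-2.59 ± 0.15). Ppp1r15a (GADD34), which restores translation, differed by -2.58 ± 0.14, Chac1, which breaks down glutathione, by -2.46 ± 0.13, and Sesn2, an inhibitor of mTORC1, by -2.19 ± 0.12. Atf3 was called in 1 scaling only, at -0.51 ± 0.10 as deposited and -0.09 after scaling (adjusted p = 0.424). The members higher with LPS were the cystine importer Slc7a11, which NRF2 also controls, and Nupr1.

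Promoter windows of Trib3 and Chac1 are given because both held the core letters of the composite site for ATF4 and C/EBP, TGATG and AA with 1 base between, marked in capitals on either strand. The pattern is in 3.97% of all windows.
Trib3, chr2:152344011-152344310, minus strand: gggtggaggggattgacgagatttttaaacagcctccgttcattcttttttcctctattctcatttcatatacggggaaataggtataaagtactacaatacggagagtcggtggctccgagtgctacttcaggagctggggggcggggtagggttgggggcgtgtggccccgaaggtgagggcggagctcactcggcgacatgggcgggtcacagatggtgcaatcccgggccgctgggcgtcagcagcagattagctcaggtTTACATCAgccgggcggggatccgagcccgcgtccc
Chac1, chr2:119350992-119351291, plus strand: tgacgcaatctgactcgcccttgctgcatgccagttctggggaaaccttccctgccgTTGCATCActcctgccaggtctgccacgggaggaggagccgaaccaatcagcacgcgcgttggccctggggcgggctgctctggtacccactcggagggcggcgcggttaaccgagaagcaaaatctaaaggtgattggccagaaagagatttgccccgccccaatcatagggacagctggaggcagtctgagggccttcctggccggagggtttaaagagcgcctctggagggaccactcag
The match lay 14 bases after the start in Trib3 and 193 bases before it in Chac1. Of the genes at least 8-fold higher with 4-OHE1 under both scalings, 27 had a window and 4 of them (14.8%) held the pattern, against 2.2% of the tested genes with a window. Among the 166 genes in the LPS direction it was 7.23%. The antioxidant-response letters bound by NRF2, TGAC and GC with 3 bases between, were in 2 of the 27 (7.41%) against 15.2% of the tested genes, and the heat shock letters, GAA, TTC and GAA with 2 bases between each, were in 0 of the 27 against 0.459%. The match is a description of these letters only.

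Targets linked to p53 and growth arrest leaned the same way, with 12 of 19 higher with 4-OHE1 and 1 with LPS. Gadd45g was at 3.46, 3.6 and 2.96 FPKM against 65.8, 94.5 and 63.7 FPKM (-4.27 ± 0.15), and Bbc3 (PUMA), which promotes apoptosis, differed by -2.49 ± 0.13. Several of these genes, Sesn2 among them, are also targets of other stress pathways. Fas, the death receptor, was the member higher with LPS, at 26.4, 29.3 and 28.2 FPKM against 1.6, 1.99 and 1.72 FPKM (3.65 ± 0.09).

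Antioxidant genes did not separate the stimuli in 1 direction. Nqo1, a quinone reductase and the standard NRF2 target, was at 72.4, 64.8 and 69.6 FPKM with LPS and at 230, 233 and 196 FPKM with 4-OHE1 (-1.66 ± 0.08, adjusted p = 9.72e-07). Gclc, the catalytic subunit that limits glutathione synthesis, differed by -1.30 ± 0.08 and sulfiredoxin, Srxn1, by -0.82 ± 0.09. Gclc means were 15.2 FPKM with LPS, 38.2 FPKM with 4-OHE1 and 33.1 FPKM in the controls. Nqo1 and Srxn1 were above their control means of 26.5 and 78.3 FPKM in both groups. Gclm, the partner subunit of GCLC, was at -0.55 ± 0.07 as deposited but at -0.13 after scaling, where it was not called (adjusted p = 0.126). Against these, Slc7a11 was at 89.1, 85.1 and 126 FPKM with LPS and at 15.5, 14.7 and 14.9 FPKM with 4-OHE1 (2.67 ± 0.14), although its control mean was 1.10 FPKM. Txnrd1, the cytosolic thioredoxin reductase, was slightly higher with LPS (0.39 ± 0.06, adjusted p = 0.000817).

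Hmox1, heme oxygenase 1, was at 1167, 1250 and 1160 FPKM with LPS and at 974, 1191 and 999 FPKM with 4-OHE1, so the groups overlapped. The log2 difference was 0.18 ± 0.09, with a 95% interval of -0.03 to 0.39 and an adjusted p of 0.106 as deposited, but 0.61 with an adjusted p of 0.000454 after scaling. Its control mean was 764 FPKM. The authors' deposited log2 fold changes against control, which are not ratios of these FPKM means, were 1.00 for LPS and 0.41 for 4-OHE1. The library that reached highest with 4-OHE1 was the second, and without it the difference was 0.27 and passed (adjusted p = 0.0151).

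Several detoxifying enzymes were higher with 4-OHE1 by wide margins. Of 20 genes of glutathione synthesis and transfer, 11 were higher with 4-OHE1 and 3 with LPS. Of 20 genes of quinone reduction, thioredoxin and NADPH supply, 9 and 4 were. The shares of all genes tested were 28.3% and 13.4%. Mgst3, a microsomal glutathione transferase, was at 9.29, 11.9 and 11.2 FPKM with LPS and at 108, 129 and 107 FPKM with 4-OHE1 (-3.35 ± 0.11), where the control mean of 151 FPKM was higher still. Gsta4, which clears the lipid aldehyde hydroxynonenal, had no read with LPS and was at 4.14, 4.91 and 4.29 FPKM with 4-OHE1, at least 43.1-fold higher against a limit of 3 reads. Its control mean was 0.0977 FPKM. Ephx1, microsomal epoxide hydrolase, differed by -3.0 ± 0.11, aldose reductase, Akr1b3, by -2.30 ± 0.09, and Taldo1 of the pentose phosphate pathway by -1.36 ± 0.10.

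Of 13 enzymes that remove superoxide and peroxide 3 were higher with each stimulus. Over all genes tested the shares were 13.4% with LPS and 28.3% with 4-OHE1. Sod2, the mitochondrial superoxide dismutase and an NF-kB target, was at 562, 605 and 565 FPKM with LPS and at 16.2, 19.5 and 17.4 FPKM with 4-OHE1 (4.99 ± 0.08). Prdx5 differed by 3.13 ± 0.11 and glutaredoxin, Glrx, by 2.48 ± 0.07. Prdx6, in contrast, was at 52.8, 55.1 and 49.7 FPKM against 213, 224 and 193 FPKM (-1.99 ± 0.08), and its 4-OHE1 level was also above the control mean of 44.5 FPKM.

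Among 8 regulators of the NRF2 pathway 3 were higher with 4-OHE1 and 1, Maff, with LPS. The shares of all genes tested were 28.3% and 13.4%. Bach1, the repressor that competes with NRF2 for its sites, was at 6.85, 6.97 and 7.59 FPKM with LPS and at 19, 18.1 and 19.1 FPKM with 4-OHE1 (-1.33 ± 0.07), and the small MAF protein Mafk differed by -1.11 ± 0.09. The control mean was 17.0 FPKM for Bach1, near its 4-OHE1 level. For Mafk it was 9.58 FPKM, near its LPS mean of 8.76 FPKM. Sqstm1 (p62), an autophagy receptor that binds KEAP1, differed by -0.91 ± 0.09. Of 17 autophagy genes 10 were higher with 4-OHE1 and none with LPS. The metal-binding metallothioneins Mt1 and Mt2 differed by -1.70 ± 0.17 and -2.12 ± 0.16. Fth1, the ferritin heavy chain and the most abundant of the genes named here, was higher with LPS, at 35972, 37004 and 33002 FPKM against 13384, 14411 and 12915 FPKM (1.38 ± 0.11).

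Where both stimuli were given together, genes of the LPS side did not all keep their LPS level. Acod1 was at 1412 ± 170 FPKM (mean ± SD, 3 libraries), near its mean of 1550 FPKM with LPS alone. Irf7 was at 327 ± 35.1 FPKM, below its mean of 435 FPKM with LPS alone. Il1b was at 146 FPKM and Arg1 at 0.0783 FPKM, against means of 4328 and 17.3 FPKM with LPS alone. On the other side, Nqo1 at 365 ± 25.1 FPKM, Gsta4 at 5.63 FPKM and Cdkn1c at 118 FPKM had higher means than with 4-OHE1 alone, and Trib3 at 22.1 ± 3.04 FPKM a lower one. These differences from the single stimuli were not tested here.

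**Figure D3:**
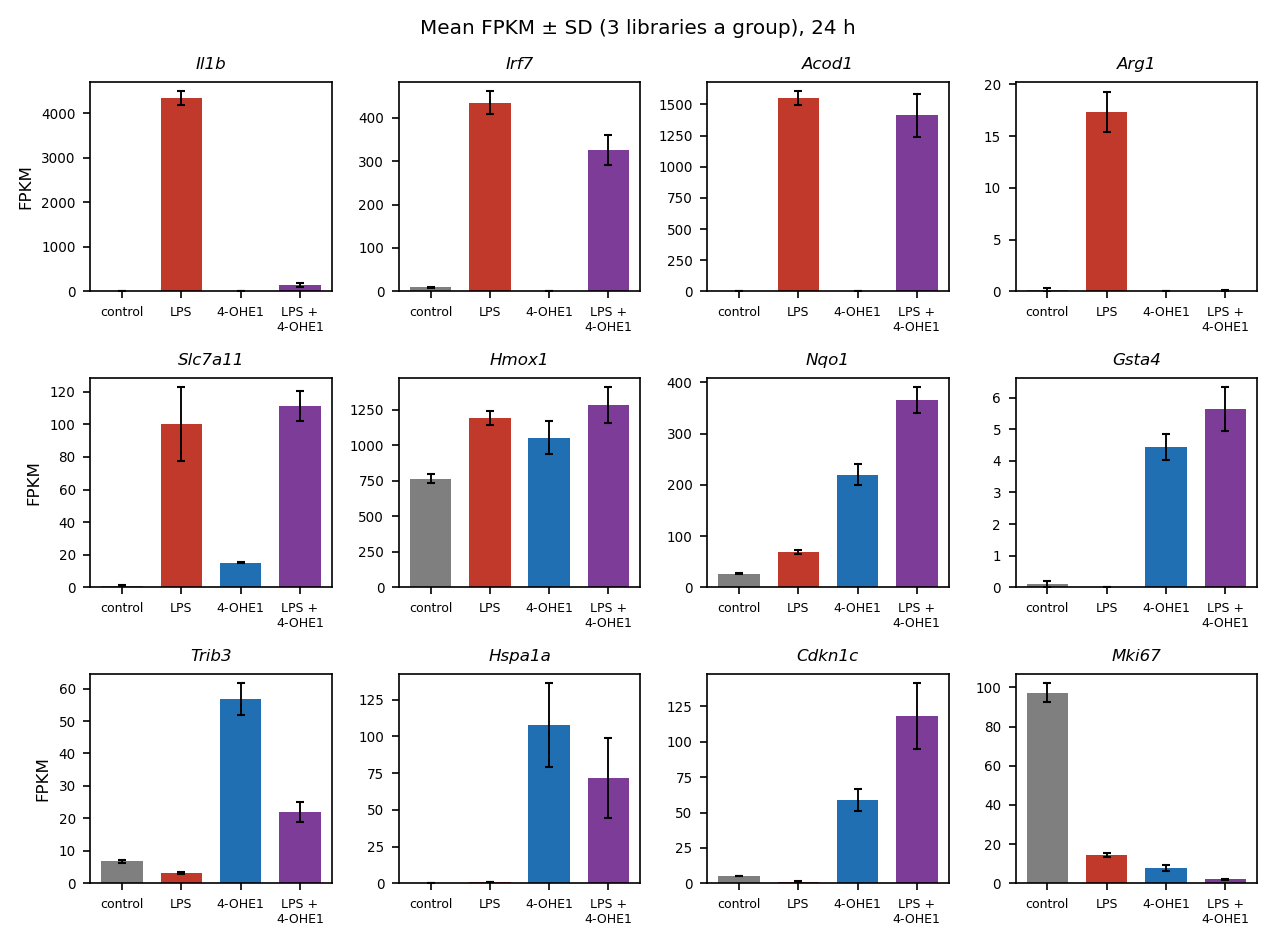
Mean FPKM at 24 h (bars, linear axis from 0) with SD (lines, 3 libraries a group) in control, LPS, 4-OHE1 and LPS + 4-OHE1 cultures for 12 genes. Il1b and Arg1 stand out with LPS alone, Slc7a11 is high in both groups with LPS, Gsta4, Trib3, Hspa1a and Cdkn1c are high in both groups with 4-OHE1, and Mki67 is highest in the control at 97.2 FPKM; Irf7 and Acod1 are high in both groups with LPS.

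Genes of the cell cycle were higher with 4-OHE1 than with LPS, and the ones named here were below their control means in both groups. Of 21 mitosis genes 20 were higher with 4-OHE1 (median -2.03), and of 28 genes of DNA replication and S phase 25 were (median -1.54), with none of the latter higher with LPS. Rrm2, which makes deoxynucleotides, was at 0.51, 0.776 and 0.628 FPKM with LPS and at 8.74, 7.08 and 10.2 FPKM with 4-OHE1 (-3.01 ± 0.16), and at a mean of 67.8 FPKM in the controls. Kif23, a kinesin of cytokinesis, differed by -2.86 ± 0.15, the ubiquitin-conjugating enzyme Ube2c by -2.97 ± 0.34, and the replication helicase subunit Mcm7 by -2.21 ± 0.13. Mki67 was the exception among the mitosis genes, at 13.3, 14.1 and 15.3 FPKM with LPS and at 7.36, 6.53 and 9.48 FPKM with 4-OHE1 (0.84 ± 0.13, adjusted p = 0.000603), with no overlap.

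Regulators of entry into the cycle included some of the widest differences. Ccnd1 (cyclin D1), which growth factor signals induce, was at 4.00, 3.06 and 3.69 FPKM with LPS and at 124, 109 and 139 FPKM with 4-OHE1 (-4.93 ± 0.12), below the control mean of 228 FPKM. Myc differed by -1.51 ± 0.11. Cdkn1c (p57), an inhibitor of cyclin-dependent kinases, was at 1.38, 0.975 and 0.598 FPKM against 56.1, 67.7 and 52.5 FPKM (-5.35 ± 0.19, adjusted p = 1.36e-07). Unlike Ccnd1, its 4-OHE1 level was above the control mean of 5.31 FPKM. Another such inhibitor, Cdkn2c, differed by -2.45 ± 0.15 but was below its control mean of 49.0 FPKM in both groups.

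Further genes with large differences in favour of 4-OHE1 were nearer to the control there than with LPS. St6gal1, a sialyltransferase, was at 0.313, 0.222 and 0.218 FPKM with LPS and at 17.9, 15.6 and 18.5 FPKM with 4-OHE1 (-4.57 ± 0.11), with a control mean of 21.4 FPKM. Gas6, the bridging ligand by which macrophages take up dying cells, differed by -4.04 ± 0.09, at 5.82 to 7.28 against 106 to 119.7 FPKM with a control mean of 192 FPKM, and the receptor for it, Mertk, by -0.97 ± 0.11. Ckb, the brain-type creatine kinase, differed by -4.05 ± 0.08, the chromatin protein Hmga2 by -4.27 ± 0.15, and Rgs2, which ends G protein signals, by -4.16 ± 0.14. The HMG-box gene Tox2 had 1 read with LPS and a mean of 9.06 FPKM with 4-OHE1, for a ratio of 453 with an exact 95% counting interval of 80.9 to 17900. Ndrg2 was different, at 7.31 to 8.94 FPKM with 4-OHE1 against a control mean of 0.696 FPKM, and its LPS level rested on 2 reads (ratio 273, exact 95% counting interval 75.3 to 2260).

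In the list of PPAR targets and lipid uptake 10 of 15 genes were higher with 4-OHE1 and 2 with LPS. Of 14 sterol efflux genes 4 were higher with 4-OHE1 and 5 with LPS, and of 22 cholesterol synthesis genes 8 and 5. The shares of all genes tested were 28.3% with 4-OHE1 and 13.4% with LPS. Pparg itself was at 1.24, 1.6 and 1.27 FPKM with LPS and at 11.0, 12.7 and 11.3 FPKM with 4-OHE1 (-2.70 ± 0.11), and its target Fabp4 differed by -2.53 ± 0.17. Both groups were below the control means, 15.1 FPKM for Pparg and 32.6 FPKM for Fabp4. Of 28 lysosome genes 9 were higher with 4-OHE1, near the share of all genes tested, and 5 with LPS, and their median changed sign on scaling. Lipa, the lysosomal acid lipase, was at 130, 124 and 142 FPKM against 745, 666 and 763 FPKM (-2.45 ± 0.08), and Atp6v0d2, a subunit of the vacuolar proton pump, differed by -2.81 ± 0.12. Their control means of 707 and 23.9 FPKM were near their 4-OHE1 means of 725 and 24.1 FPKM. Cathepsin Z, Ctsz, was higher with LPS (1.42 ± 0.09). The cholesterol exporters Abca1 and Abcg1 moved apart, at 2.92 ± 0.11 and -1.78 ± 0.09. The 4-OHE1 mean of Abcg1, 15.6 FPKM, was above its control mean of 5.66 FPKM.

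The direction of central metabolism depended on the scaling. Of 38 nuclear-encoded subunits of the respiratory chain, 4 were higher with LPS and 10 with 4-OHE1 as deposited, 23 and 1 after scaling, and 4 and 1 under both. Mitochondrial ribosomal proteins gave 0 and 15 of 33 as deposited and 10 and 2 after scaling, and cytosolic ribosomal proteins 1 and 5 of 35 and then 10 and 0. These lists and the proteasome had medians between -0.31 and -0.11 as deposited and between 0.11 and 0.32 after scaling, on opposite sides of 0, so no direction is given for them.

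Single metabolic genes held under both. Hif1a, the hypoxia-inducible factor subunit that LPS is known to raise, was at 79.3, 76.4 and 98 FPKM with LPS and at 23.5, 18.9 and 24.6 FPKM with 4-OHE1 (1.90 ± 0.13). Pfkfb3, which stimulates glycolysis, differed by 1.74 ± 0.07. Of 25 genes of glycolysis and hypoxia 9 were higher with LPS, against 13.4% of all genes tested, and 4 with 4-OHE1, against 28.3%. The latter included Ndrg1 (-2.00 ± 0.08) and Vegfa (-1.70 ± 0.15). Pcx, pyruvate carboxylase, was higher with LPS (1.5 ± 0.10) and Mdh1, the cytosolic malate dehydrogenase, with 4-OHE1 (-1.19 ± 0.07).

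**Figure D4:**
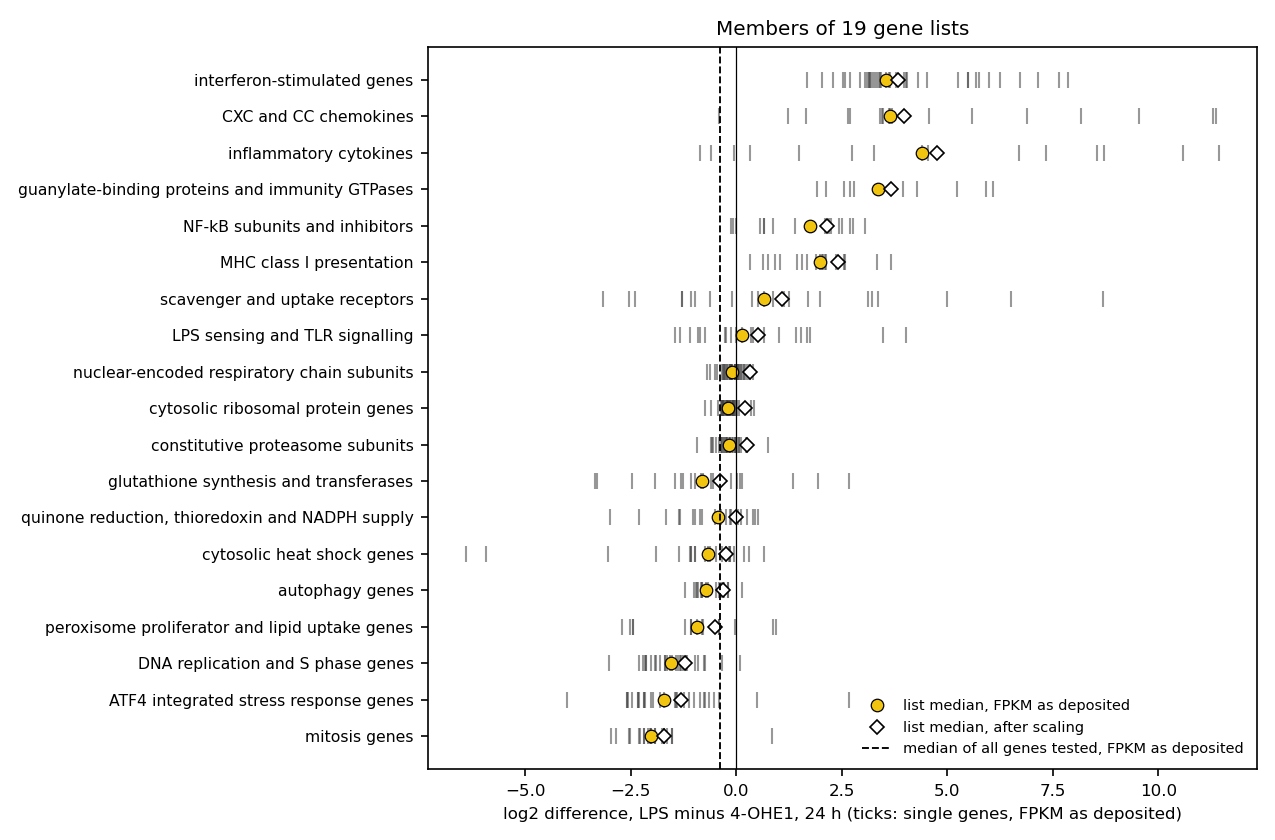
Log2 difference between LPS and 4-OHE1 at 24 h (horizontal axis, LPS minus 4-OHE1) of the measured members of 19 gene lists, with each gene as a tick, the list median of the deposited values as a yellow circle and the median after scaling as an open diamond. The dashed line is the median of all genes tested, -0.39; lists of the LPS response lie right of 0 in both scalings, the 3 lists at the bottom lie left of it in both, and the respiratory chain, ribosome and proteasome medians change sides.

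Of 11 metalloproteinases and their inhibitors 6 were higher with LPS and 4 with 4-OHE1, against 13.4% and 28.3% of all genes tested. Mmp14, a membrane collagenase, was at 266, 278 and 253 FPKM with LPS and at 0.806, 0.647 and 0.693 FPKM with 4-OHE1 (7.78 ± 0.08), and Mmp9, the gelatinase, differed by 5.95 ± 0.09. Mmp12, the macrophage elastase, was higher with 4-OHE1, at 62.8, 65.3 and 74.3 against 419, 408 and 463 FPKM (-2.66 ± 0.08), where the control mean was 114 FPKM. Thbs1 (thrombospondin 1) differed by 5.23 ± 0.07, and Plau, the urokinase, by -3.54 ± 0.12. Timp2, an inhibitor of these proteases, differed by -2.05 ± 0.11. Inhba, which makes activin A, was higher with LPS (3.81 ± 0.17), and 7 of 18 growth and repair factors were, against 10 higher with 4-OHE1. Among transcription factors of rapid responses, Batf differed by 4.02 ± 0.12, while Klf4 and Klf2 differed by -2.54 ± 0.08 and -2.20 ± 0.10. The AP-1 factor Fosb had 3 reads with LPS and a mean of 2.39 FPKM with 4-OHE1, a ratio of 93 with an exact 95% counting interval of 31.5 to 453.

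Of 10 measured genes tied to estrogens and their catechols 3 were higher with 4-OHE1, near the 28.3% of all genes tested. With LPS 5 were higher, against 13.4% of all genes tested. Cyp1b1, which makes 4-hydroxylated estrogens, was at 11.4, 10.5 and 14.3 FPKM with LPS and at 1.72, 1.24 and 1.12 FPKM with 4-OHE1 (2.76 ± 0.16). Its regulator Ahr, the aryl hydrocarbon receptor, differed by 2.65 ± 0.12, and Tiparp, another target of that receptor, by 1.24 ± 0.12. All of these had higher means with 4-OHE1 than in the controls, where Cyp1b1 was at 0.794 FPKM, Ahr at 0.606 FPKM and Tiparp at 12.2 FPKM. Among 7 osmolyte transporters 5 were higher with 4-OHE1 and none with LPS, including the inositol carrier Slc5a3 (-2.81 ± 0.16).

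A few abundant genes were nearly level between the stimuli as deposited. Atp6ap1, an accessory subunit of the vacuolar proton pump, was at 256, 252 and 252 FPKM with LPS and at 255, 246 and 258 FPKM with 4-OHE1, a log2 difference of 0.00 ± 0.06. Esd, S-formylglutathione hydrolase, was at 397, 390 and 387 against 390, 383 and 377 FPKM (0.03 ± 0.06), and both groups were above its control mean. After scaling the same genes were called higher with LPS, at 0.43 (adjusted p = 0.000308) and 0.46 (adjusted p = 0.000194). In the authors' deposited table the fold changes against control differed between LPS and 4-OHE1 by 0.42 for Atp6ap1 and 0.44 for Esd on the log2 scale, nearer to the scaled values.

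The difference between the stimuli was then set beside that at 6 h. In 10824 genes tested over the 12 libraries of both times, leaving out the 1114 genes for which the tables of the 2 times list different transcripts, the log2 difference LPS minus 4-OHE1 was larger at 24 h in 2814 (26%) and smaller in 2569 (23.7%) under both scalings. Without scaling the counts were 3098 and 2589. The labels tie no library at 6 h to one at 24 h. A larger difference is a move toward LPS.

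Some of the strongest LPS genes drew closer between 6 h and 24 h. Cxcl10 was at 3140, 3094 and 2825 FPKM with LPS and at 0.401, 0.225 and 0.675 FPKM with 4-OHE1 at 6 h, and its difference fell from 11.69 to 6.88, a time difference of -4.81 ± 0.22. At 24 h its LPS libraries held 78.7, 80.4 and 86.3 FPKM and its 4-OHE1 libraries 0.239, 0.299 and 0.077 FPKM. Nos2 changed by -3.60 ± 0.10 from 360, 345 and 335 FPKM with LPS at 6 h, and Cd40 and Tlr2 by -3.30 ± 0.13 and -3.16 ± 0.09. Tlr2 moved from both sides, since its mean with 4-OHE1 was 2.66 FPKM at 6 h and 13.8 FPKM at 24 h.

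Other differences opened or widened late. Arg1 was at 0.314, 0.07 and 0.163 FPKM with LPS and at 0, 0.168 and 0.144 FPKM with 4-OHE1 at 6 h, where the groups overlapped (0.17 ± 0.20, adjusted p = 0.444), and its time difference was 4.87 ± 0.24. Adgre1 widened by 2.27 ± 0.06, from 420, 427 and 428 against 163, 170 and 168 FPKM at 6 h. Saa3 widened by 1.79 ± 0.56 (adjusted p = 0.0176), but its difference at both times rested on 4-OHE1 values of a few FPKM, and with a pseudocount of 0.1 the time difference was 1.45 and did not pass (adjusted p = 0.0871).

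The early lead of 4-OHE1 in Hmox1 and Gclc shrank. At 6 h Hmox1 was at 1786, 1710 and 1779 FPKM with LPS and at 10388, 10170 and 9824 FPKM with 4-OHE1 (-2.53 ± 0.05). By 24 h the groups overlapped, and the time difference was 2.71 ± 0.10 (adjusted p = 1.58e-09). Gclc was at 33.5, 31.9 and 34.1 against 356, 339 and 359 FPKM at 6 h and changed by 2.09 ± 0.09, but stayed higher with 4-OHE1 at 24 h. Hspa1a and Ccnd1 went the other way. Hspa1a was already at 62.4, 73.7 and 76.3 FPKM with 4-OHE1 at 6 h and its difference changed by -1.38 ± 0.22, and that of Ccnd1 by -2.54 ± 0.14.

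Some genes changed sides. Il15, which supports NK cells and T cells, was at 116, 116 and 110 FPKM with LPS and at 3.1, 5.31 and 4.71 FPKM with 4-OHE1 at 6 h (4.58 ± 0.16), and at 24 h its means were 5.85 and 9.09 FPKM (-0.60 as deposited and -0.20 after scaling, where it was not called). The membrane-bound chemokine Cx3cl1 and Slfn9 changed by -4.89 ± 0.17 and -4.38 ± 0.18 in the same sense, and the calcium pump Atp2b4 by -4.03 ± 0.14. At 24 h Cx3cl1 was at means of 0.461 FPKM with LPS and 0.844 FPKM with 4-OHE1 (-0.48 as deposited), below the filter of the test at that time. Gprc5c, an orphan receptor, was below 1.1 FPKM in all 6 libraries at 6 h and at a mean of 6.68 FPKM with 4-OHE1 and 0.025 FPKM with LPS at 24 h (time difference -4.37 ± 0.18).

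In the opposite sense, Hilpda, which limits lipolysis in lipid droplets, was higher with 4-OHE1 at 6 h (8.03, 5.83 and 6.53 against 31, 34.9 and 32.4 FPKM) and higher with LPS at 24 h (means of 15.4 and 8.40 FPKM), a time difference of 3.04 ± 0.16. The transcription factor Glis3 (3.12 ± 0.19), the histone gene Hist1h2bc (2.89 ± 0.13) and the receptor Treml4 (2.84 ± 0.20) moved likewise. Ctla2b, at 2.80 ± 0.15, had a difference of -0.31 at 6 h as deposited and 0.18 after scaling, so its change of side rested on the scaling. Mki67 went from -0.36 at 6 h, or 0.13 after scaling, to 0.84 at 24 h (time difference 1.21 ± 0.15).

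**Figure D5:**
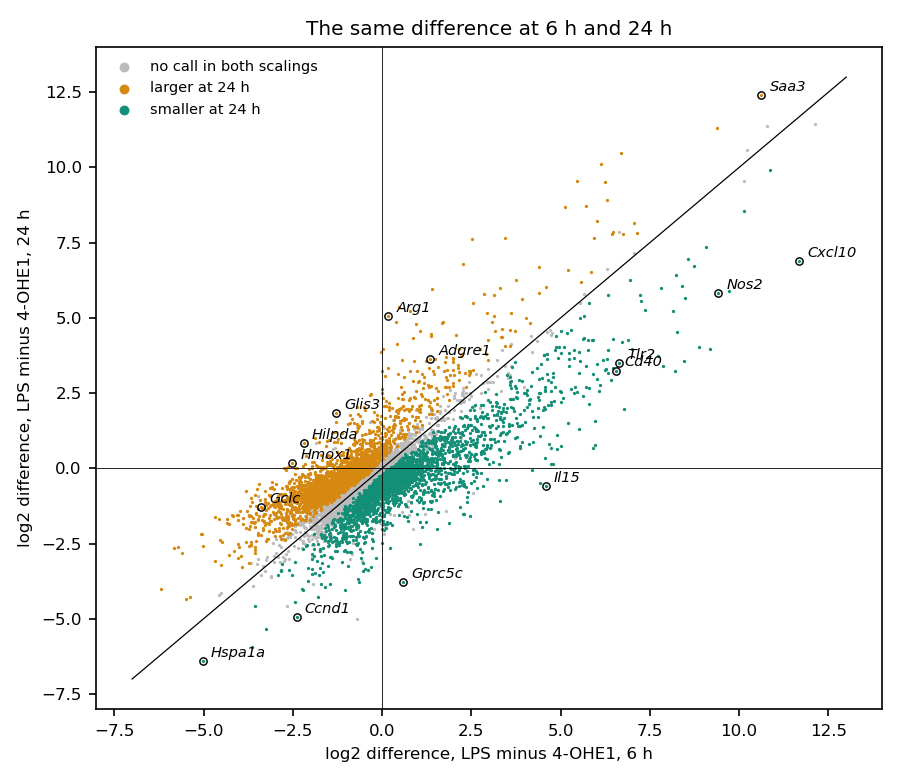
Log2 difference LPS minus 4-OHE1 at 6 h (horizontal axis) and at 24 h (vertical axis) for 10824 genes, with the line of equal difference. Orange points are the 2814 genes whose difference was larger at 24 h and green points the 2569 whose difference was smaller, under both scalings; Arg1 and Hmox1 lie above the line, Cxcl10, Nos2 and Il15 below it.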

How the data were processed

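RNA was sequenced from 24 libraries of mouse bone marrow-derived macrophages, of which 12 (LPS and 4-OHE1, 6 h and 24 h) entered the main tests. An alternative fit took the 12 libraries of 24 h, including the control and combined cultures. The deposited FPKM values were computed by the authors per gene and library, per the file headers, which name the HOMER command. STAR, HOMER, DESeq2, edgeR and the genome build mm10 are named in the submitters' processing notes, and their versions are not given in the sources used here. The authors' deposited log2 fold changes against control were copied only for Hmox1, Atp6ap1 and Esd.

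The tested genes reached 1 FPKM in 3 or more of the 6 libraries. They were compared on log2(FPKM + 0.5) with limma 3.58.1 in R 4.3.3 (empirical Bayes with a mean trend, two-sided, Benjamini-Hochberg adjustment, called at an adjusted p under 0.05). The same fit was run after dividing each library by its median-of-ratios size factor. The change with time was a contrast in a fit of 12 libraries. FPKM times length and depth gave whole reads in 100% of values within 0.1 read, and limma's voom on these reads was an alternative. Counting intervals are exact at 95%, and they and the limit of 3 reads cover counting error only. Whether the counting used strand is not stated, so overlapping and antisense genes cannot be separated.

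Replicate libraries correlated at 0.985 to 0.991 and differed by more than counting noise, so none was merged with another as a repeat deposit. This does not show that they are separate biological samples. Genes named are the 15 widest differences in each direction, fixed benchmark genes, up to 4 called members of each list and the widest time differences. C1qa, C3ar1, Csf1r, Tlr4, Tnfsf9, Nupr1 and the marker genes were named after their values were seen, outside this rule. The gene lists and members were chosen with earlier results of these data known.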

Additional observations from a re-analysis of the deposited data

Results flagged for a closer look

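The difference between LPS and 4-OHE1 was not the same at 6 h and 24 h, which was tested as a contrast with limma over 12 libraries. It was larger at 24 h in 2814 genes and smaller in 2569 under both scalings. Values below are the log2 difference LPS minus 4-OHE1 at 24 h minus that at 6 h, and each passed with both scalings. No explanation was tested.

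The widest moves toward LPS among genes that changed sides in the deposited values were those of Glis3 at 3.12, Hilpda at 3.04, Hist1h2bc at 2.89, Treml4 at 2.84 and Ctla2b at 2.80. The widest moves toward 4-OHE1 among such genes were those of Il15 at -5.18, Cx3cl1 at -4.89, Slfn9 at -4.38, Gprc5c at -4.37 and Atp2b4 at -4.03. Cx3cl1 was below the filter of the test at 24 h alone.

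Of the genes followed for their size or role, Arg1 moved by 4.87, Hmox1 by 2.71, Adgre1 by 2.27, Gclc by 2.09, Saa3 by 1.79 and Mki67 by 1.21 toward LPS. Cxcl10 moved by -4.81, Nos2 by -3.60, Cd40 by -3.30, Tlr2 by -3.16, Ccnd1 by -2.54 and Hspa1a by -1.38 toward 4-OHE1.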

How the results depend on the processing

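The scaling between libraries changed the balance of calls most. As deposited 1436 genes were higher and 6288 lower with LPS. The numbers were 3061 and 3037 with median-of-ratios scaling, 3116 and 3053 with voom on the recovered reads, and 3542 and 3372 with the replicate block and scaling together. Upper quartile scaling, at 2092 and 4278, moved the median gene to -0.175 and the share of higher calls by over 10 percentage points. Leaving out 1 library at a time gave 1313 to 1453 higher, 5633 to 6244 lower, 3817 to 4408 called the same way under both scalings, and, for the time contrast, 2846 to 3185 larger and 2366 to 2642 smaller differences.

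Same-numbered libraries of the groups deviated together only in part (correlations 0.0186, 0.299 and 0.332, with library 1 correlating best with another number), so the numbers were not taken as pairs. With the replicate block 1594 genes were higher and 6847 lower, 4966 were called the same way under both scalings, and 3405 time differences were larger and 2811 smaller. The block also gave a call to Hmox1 (adjusted p 0.00881, limma) and Csf1r (0.0147) as deposited, where both had none.

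Atf3, Gclm and Rplp0 lost their call with scaling and with voom, while Hmox1, Atp6ap1, Esd and Csf1r gained one with scaling. Fth1 and Rps9 lost theirs without the filter on low values (adjusted p 0.0704 and 0.0756, limma), and Rps9 also lost it without any 1 of 4 of the 6 libraries (0.0984 to 0.12). Hmox1 gained a call without 4-OHE1 library 2 (0.0151, limma). Csf1r gained one without LPS library 3 (0.0322) and at the edge in the fit of the 12 libraries of 24 h (0.05). Atp6ap1, at 0.00, ranged from -0.0148 (without 4-OHE1 library 2) to 0.0183 over single libraries left out and was -0.00298 without LPS library 1, all with no call. Pseudocounts of 0.1 and 1 and robust moderation changed no call among the 168 genes followed at 24 h. The cause of these changes was not tested. At this depth, genes of a few reads give wide intervals, as stated for Il6 and Arg1.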
